A study of Mus musculus with 22 samples.

Results

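Clone C50 is one of the 4 GFP reporter clones of mpkCCD, an immortalised mouse kidney line that stems from cells of the cortical collecting duct. Its RNA-seq profile is described here by the 4 C50 libraries of 22 in the series, set against the 12 libraries of clones C1, C11 and C43. The comparison took every gene with a mean TPM (transcripts scaled to a fixed total per library) of at least 1 over these 16 libraries, worked on log2(TPM + 1), and kept the GFP fraction as a covariate. Genes in which all 4 C50 libraries lay above the highest or below the lowest of the 12 others are called beyond the range of the other clones. Of 54514 entries in the table, 13113 were tested.

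The series follows cell-to-cell differences in aquaporin-2 (Aqp2), the water channel of the collecting duct, with a GFP reporter. All 16 clone libraries came from cells given dDAVP (desmopressin), which activates the V2 type of vasopressin receptor, and each clone was separated into GFP-negative and GFP-positive cells with 2 libraries per fraction. Unsorted mpkCCD cells without the reporter (WT), given dDAVP (3 libraries) or no dDAVP (3 libraries), are used only to place C50 against the parental line. The labels name several doses and durations of dDAVP and do not say which applied to a library. C50 is 1 clone, and the labels do not say that its libraries came from separate cultures, so the p-values measure the spread between these libraries and not between clones in general. The promoter and the insertion site of the reporter are not given in the sources used here. TPM keep no depth, so the depth of each library is unknown.

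Principal cells of the collecting duct take up water through apical Aqp2 under the control of vasopressin, which acts through the V2 receptor, cAMP and protein kinase A. They also reabsorb sodium through the epithelial sodium channel, while the neighbouring intercalated cells carry proton pumps and handle acid and base. A cell line is not genetically uniform, and each subclone starts from a single cell, so that sister clones of one line can differ in many transcripts besides the one a reporter follows.

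One C50 library stood apart. In GFP-negative replicate 1, ribosomal protein transcripts made up 8.56% of TPM, against 4.80% to 4.98% in the other 3 C50 libraries and 4.35% to 5.49% in the 12 others. Between the 2 GFP-negative C50 libraries the median absolute log2 difference per gene was 0.508, whereas it was 0.121 to 0.238 in the 7 other pairs of replicates. Mitochondrial transcripts made up 1.29% to 1.85% of TPM in C50 and 1.07% to 1.91% in the others. Results are therefore given with all 4 C50 libraries and without that one.

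Some collecting duct and epithelial markers were expressed in C50 at levels near those of the other clones, and others lay partly outside their range. Krt8, an epithelial keratin, stood at 2996, 3385, 3207 and 3203 TPM in C50 (throughout, GFP-negative replicates 1 and 2, then GFP-positive replicates 1 and 2) and at 2733 to 3812 (median 3209) in the 12 other libraries. Avpr2, the V2 receptor, was at 148, 155, 385 and 377 TPM, against 137 to 366 (median 251), so that the GFP-positive C50 libraries lay above the others and the GFP-negative ones within their range. Gata3, a transcription factor of the collecting duct lineage, had means of 217 ± 111 TPM (SD, n = 4) and 201 ± 76.4 TPM (SD, n = 12). Of 21 principal cell markers 15 could be tested, and 1 was called, Hsd11b2, which was higher (2.76% of all tested genes were called). Aqp3 and Aqp4, the basolateral water channels of principal cells, were low in C50 at 0.57 to 2.54 and 0 to 0.31 TPM and in the others at 0.15 to 4.13 (median 1.18) and 0 to 6.46 (median 0.525), and the sodium channel subunit Scnn1b was at 0 to 0.39 TPM, under the level needed for testing. Scnn1a, another subunit of that channel, was at 42.2, 125, 154 and 164 TPM against 133 to 244 (median 176). Both GFP-negative C50 libraries lay below all the others, and the lowest was the library with the high ribosomal share. Scnn1a was not called (log2 difference -0.74, SE 0.227, limma Benjamini-Hochberg adjusted p 0.105).

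Fibroblast, endothelial and immune markers were scarce, while some urothelial markers were abundant in all clones. None of the 10 fibroblast and 8 endothelial markers reached the level for testing, and their summed TPM was 0.18 to 2.46 and 0.53 to 3.97 in C50, against 0.01 to 3.90 and 0 to 3.90 in the others. Of 9 immune markers, Cd68 and Csf1r were tested and neither was called, with summed TPM of the list at 11.9 to 21.6 in C50 and 16.7 to 32.2 in the others. The urothelial and squamous list (10 markers, 6 tested) summed to 729 to 1497 TPM in C50 and 896 to 1832 in the others. Upk1a, a protein of the urothelial surface, had a mean of 738 TPM in C50 and 609 in the others and was not called. Within the list Krt20, a keratin of urothelial and gut surface cells, was at 311, 382, 376 and 386 TPM in C50, below the 443 to 745 (median 627) of every other library (log2 difference -0.77, SE 0.114, limma adjusted p 0.000865). In these bulk libraries, fewer cells of a type and less RNA per cell cannot be told apart.

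Aqp2 did not set C50 apart. Its level was 1232 and 1254 TPM in the GFP-negative and 4894 and 4409 TPM in the GFP-positive C50 libraries, and 66.5 to 7254 TPM (median 1844) in the others. All 4 C50 values lay inside that range, which pools both fractions. The log2 difference of 1.22 (SE 0.725) was not called (limma adjusted p 0.447, and two-sided exact permutation within fractions over 784 arrangements, p 0.170). By fraction it was 2.02 in GFP-negative and 0.42 in GFP-positive libraries, called in neither alone (limma adjusted p 0.381 and 0.785). By clone the difference was 2.67 from C1, 1.47 from C11 and -0.48 from C43, so C50 stood between C11 and C43. GFP was 5.31 and 10.9 TPM in the GFP-negative and 1567 and 1425 TPM in the GFP-positive C50 libraries, against 9.84 to 1400 (median 541), and the fractions of C50 matched their labels. The 2 GFP-positive values were above those of all other libraries and the first GFP-negative value was below them. The fitted GFP difference of -0.20 (SE 0.189) was not called (limma adjusted p 0.642, exact permutation p 0.356), and it was 0.09 without the library that stood apart.

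With both fractions together, more transcripts were called lower than higher in C50. Of 13113 genes tested, 362 (2.76%) were called at a limma adjusted p under 0.05 (Benjamini-Hochberg over all tested genes), 85 higher (0.648%) and 277 lower (2.11%). In 130 genes, 29 higher and 101 lower, the log2 difference was 1 or more in size. Beyond the range of the other clones were 191 genes (1.46%), 42 above (0.32%) and 149 below (1.14%), and 155 (1.18%) were both called and beyond the range, 32 higher (0.244%) and 123 lower (0.938%). For 25 of the 42 and 116 of the 149 genes, C50 was also beyond the 3 WT libraries given dDAVP. The median difference over all tested genes was -0.05, and the share of higher calls moved with scaling. It was 23.5% in the TPM as given, 33.1% when libraries were scaled by their median ratio (127 higher, 257 lower) and 37.8% under quantile normalization (159 higher, 262 lower).

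Without GFP-negative replicate 1 of C50, 299 of 13151 genes were called (2.27%), 105 higher (0.798%) and 194 lower (1.48%). The 221 genes called both ways had the same direction, and they made up 61.0% of the 362 and 73.9% of the 299. Beyond the range were then 147 genes above (1.12%) and 183 below (1.39%). Leaving out GFP-positive replicate 1 or 2 of C50 instead gave 223 and 220 calls, and leaving out GFP-negative replicate 2 put 350 genes beyond the range. When each clone was counted as 1 value, 1 against 3, no gene was called by limma (481 had an unadjusted p under 0.05, and 362 were called in the fit by library), and with the clone as a random block 82 were called, all of them among the 362. The calls thus describe a difference between these C50 libraries and these 12 libraries.

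Every clone had genes beyond the range of the other 3. Counted in the same way, 907 genes (6.92%) lay beyond the range for C1, 183 (1.40%) for C11 and 143 (1.09%) for C43, against 191 (1.46%) for C50. Below the range were 390 of 907 for C1, 42 of 183 for C11, 48 of 143 for C43 and 149 of 191 for C50. In GFP-positive libraries alone the balance for C50 turned, with 1430 genes above and 977 below the range, as it did in the libraries with more genes detected, with 501 above and 457 below. Whether the shares differ between clones was not tested. In a fit with a mean for each clone and fraction, C50 differed from C1 in 3157 genes, from C11 in 1139 and from C43 in 1125. Fits to the libraries of C50 and 1 other clone alone called 1404 genes for C1, 369 for C11 and 346 for C43.

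**Figure D1:**
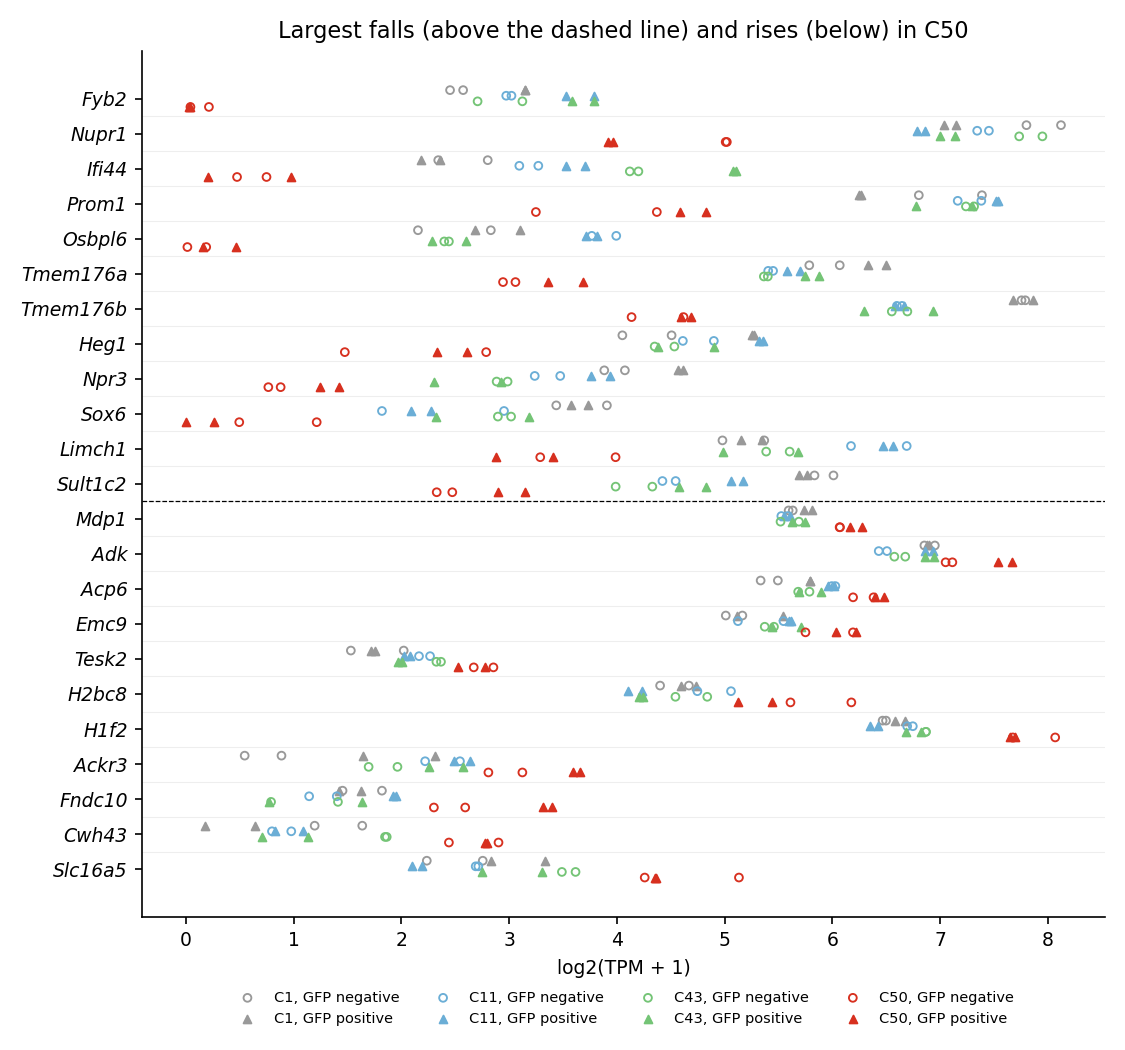
Log2(TPM + 1) in each of the 16 clone libraries for the 12 largest falls (above the dashed line) and 11 of the 12 largest rises (below it) among genes beyond the range of the other clones that were called with and without GFP-negative replicate 1, had a mean of at least 5 TPM in the higher set and a symbol that is not provisional. Each point is 1 library, coloured by clone, open for GFP-negative and filled for GFP-positive; the red C50 points lie apart from all C1, C11 and C43 points in every gene, as the choice of genes requires.

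The largest falls were in genes of several different roles. They were chosen among 88 genes that were lower and called with and without GFP-negative replicate 1, beyond the range, and at a mean of at least 5 TPM in the higher set. Fyb2, an adaptor protein of the FYB family, was at 0.16, 0.03, 0.02 and 0.03 TPM in C50 and at 4.47 to 12.8 TPM (median 7.79) in the others. It was close to absent in every C50 library and present in each of the 12 others and in WT cells given dDAVP (5.68 to 6.97 TPM), a log2 difference of -3.07 (SE 0.186, limma adjusted p 4.49e-08). Nupr1, a small nuclear protein induced by cell stress, was at 31.4, 31.2, 14.6 and 14.1 TPM against 109.5 to 277 (median 151). Its difference, -2.89 (SE 0.126, limma adjusted p 6.99e-10), was the one with the smallest p of the named genes, and C50 was lower in both fractions. Osbpl6, a lipid carrier related to the oxysterol-binding proteins, was at 0.01, 0.14, 0.12 and 0.38 TPM against 3.45 to 14.9 (median 5.77), with a difference of -2.77 (SE 0.332, limma adjusted p 0.000112). Sult1c2, a cytosolic sulfotransferase, was also lower in all 4 C50 libraries, at 4.02 to 7.83 TPM against 14.9 to 63.4 (-2.31, SE 0.319, limma adjusted p 0.000449).

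Further falls included the following genes of the cell surface and cytoskeleton. Prom1 (CD133), a glycoprotein of membrane protrusions, was at 8.50, 19.7, 22.9 and 27.4 TPM in C50 and 74.7 to 184 (median 153) in the others. The difference was -2.82 (SE 0.279, limma adjusted p 1.49e-05), a 7.11-fold lower mean, and the lowest value was that of GFP-negative replicate 1. Heg1, a transmembrane protein known from heart and vessel development, was at 1.78, 5.90, 4.04 and 5.11 TPM against 15.6 to 39.9 (median 26.1). All 4 values were also below WT cells with dDAVP, at 12.2 to 23.04 TPM, and the difference from the clones was -2.48 (SE 0.216, limma adjusted p 3.33e-06). Npr3, the clearance receptor of natriuretic peptides, was at 0.70, 0.84, 1.37 and 1.68 TPM against 3.93 to 23.5 (median 11.3), a difference of -2.48 (SE 0.342, limma adjusted p 0.000449). Itga2, the alpha subunit of a collagen-binding integrin, was at 0.04, 0.14, 0.07 and 0.29 TPM against 1.26 to 7.38 (median 4.4), again with no overlap (-2.14, SE 0.254, limma adjusted p 0.000109). In the list of collagens, laminins and integrins, 1 of 26 tested genes was called higher, Itga2b (0.49, limma adjusted p 0.0341), and 2 lower, Itga2 and Itgb5, beside 0.648% and 2.11% of all tested genes. Itga2b and Itgb5 were not called without GFP-negative replicate 1 (limma adjusted p 0.0848 and 0.0898). Limch1, a regulator of actin and myosin, was lower by -2.31 (SE 0.316, limma adjusted p 0.000427), with 6.36 to 14.9 TPM in C50, 30.5 to 102 in the other clones and 12.6 to 19.9 in WT cells with dDAVP. C50 and WT overlapped for this gene, and the other clones stood above both.

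Among transcription factors, Twist1, known for its part in epithelial-mesenchymal transition, was at 0.20, 0.11, 0 and 0.17 TPM in C50 and 3.38 to 7.05 (median 4.64) in the others. It was nearly absent in C50, lower than in WT cells with dDAVP at 1.86 to 2.91 TPM, and the difference was -2.34 (SE 0.175, limma adjusted p 5.80e-07). Sox6, an HMG-box factor, was at 0.41, 1.32, 0 and 0.20 TPM against 2.53 to 14 (median 6.92), a difference of -2.44 (SE 0.348, limma adjusted p 0.000586). Of the 13 tested genes of the epithelial-mesenchymal list, 2 were called, Twist1 and Cdh2 (background 2.76% of all tested genes), and the median of the list was 0.03 beside -0.05 over all genes. Cdh2, neural cadherin, was at 0 to 0.08 TPM in C50 and 0.17 to 2.89 in the others (-1.06, SE 0.255, limma adjusted p 0.0325), and its adjusted p was 0.124 without GFP-negative replicate 1. Mmp14, a membrane-bound metalloproteinase of the list, was called higher only without that library (limma adjusted p 0.0238, against 0.367 with it). Cdh1, epithelial cadherin, was at 125, 427, 518 and 532 TPM against 377 to 601, and was not called (-0.48, SE 0.233, limma adjusted p 0.338).

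Several of the falls were neighbours on a chromosome. Ordered along the genome, 8 runs of adjacent tested genes lay beyond the range in the same direction, with 17 genes in all, and every run was lower in C50. On chromosome 4 the run was Fyb2, Prkaa2 and Plpp3. Prkaa2, a catalytic subunit of the energy sensor AMP-activated kinase, was at 0.07 to 0.14 TPM in C50 and 1.55 to 3.34 in the others (-1.50, SE 0.162, limma adjusted p 4.67e-05). Plpp3, a lipid phosphate phosphatase, was at 1.03 to 2.26 TPM against 3.56 to 13.4 (-1.67, SE 0.222, limma adjusted p 0.000329). On chromosome 7 Nupr1 lay next to Cln3, a lysosomal membrane protein, which was at 4.67 to 9.17 TPM against 27.1 to 40.4 (-2.13, SE 0.123, limma adjusted p 3.36e-08). On chromosome 5 Prom1 lay next to Fgfbp1, a secreted carrier of fibroblast growth factors, at 41.8 to 48.9 TPM against 83.0 to 175 (-1.39, SE 0.158, limma adjusted p 8.88e-05). That the genes of a run were low in all 4 C50 libraries follows from the definition of a run. A further 3 of the 8 runs were on chromosome 16.

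Tmem176a and Tmem176b, related membrane proteins encoded head to head on chromosome 6, made up another run, and their promoters are shown because they share bases. The sequences are those of RefSeq (GRCm38.p6), from 250 bases before to 50 after the start of each gene, read 5′ to 3′ on the gene's own strand, with the 155 bases that lie in both windows in capitals. The window of Tmem176a is chr6:48841233-48841532 on the plus strand and that of Tmem176b is chr6:48841088-48841387 on the minus strand.
Tmem176a: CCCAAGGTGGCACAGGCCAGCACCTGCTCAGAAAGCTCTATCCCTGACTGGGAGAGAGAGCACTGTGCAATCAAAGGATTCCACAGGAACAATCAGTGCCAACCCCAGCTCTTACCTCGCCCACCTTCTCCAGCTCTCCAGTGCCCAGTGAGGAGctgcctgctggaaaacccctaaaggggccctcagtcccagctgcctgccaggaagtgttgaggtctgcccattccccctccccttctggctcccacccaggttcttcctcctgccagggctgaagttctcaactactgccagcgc
Tmem176b: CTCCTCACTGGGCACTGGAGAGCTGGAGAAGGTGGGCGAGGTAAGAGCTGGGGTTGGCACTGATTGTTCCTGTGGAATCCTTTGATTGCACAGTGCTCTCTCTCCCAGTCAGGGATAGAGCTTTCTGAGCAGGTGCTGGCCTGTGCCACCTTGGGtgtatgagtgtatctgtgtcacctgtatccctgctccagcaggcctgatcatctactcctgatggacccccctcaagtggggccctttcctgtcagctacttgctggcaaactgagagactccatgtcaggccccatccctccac

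Both genes were low in every C50 library, as the definition of a run requires. Tmem176a was at 7.33, 6.69, 11.9 and 9.27 TPM in C50 and 40.2 to 89.4 (median 51.8) in the others, a difference of -2.50 (SE 0.166, limma adjusted p 1.12e-07). Tmem176b was at 23.6, 16.6, 23.2 and 24.8 TPM against 77.5 to 231 (median 102), a difference of -2.49 (SE 0.287, limma adjusted p 9.14e-05). Neither gene overlapped the other clones, and both were also under WT cells with dDAVP, at 20.6 to 23.5 TPM for Tmem176a and 55.6 to 60.6 for Tmem176b. The shared bases lie upstream of both starts.

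Some interferon-induced genes were lower in C50. Of 36 genes of the interferon and antigen presentation list 31 were tested, 7 were called lower and none higher (background 2.11% and 0.648% of all tested genes), and the median difference was -0.33 beside -0.05 over all genes. Below 0 were 26 of the 31, beside 58.2% of the tested genes on chromosomes other than 16. Ifi44 was at 0.39, 0.68, 0.15 and 0.97 TPM in C50 and 3.53 to 33.4 (median 9.59) in the others, with WT cells given dDAVP at 0.99 to 1.87. C50 was below every other clone and just below WT, and the difference from the clones was -2.88 (SE 0.482, limma adjusted p 0.0024). Ifit3, one of the interferon-induced proteins that bind foreign RNA or its sensors, was at 6.65, 7.32, 7.47 and 7.60 TPM against 20.01 to 55.4 (median 31.3), and at 15.8 to 17.9 in WT. The 4 C50 values were close to one another and below all of these libraries (-2.06, SE 0.183, limma adjusted p 4.00e-06). Its close copy Ifit3b was also lower (-1.65, SE 0.229, limma adjusted p 0.000452), and reads may be split between the copies with some error.

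The remaining called members of this list were Psmb9 at -1.32 (SE 0.239, limma adjusted p 0.00463), Ifit2 at -1.23 (SE 0.229, 0.00561), Ifit1 at -1.02, Oasl2 at -0.97 and Tap1 at -0.65. Psmb9 is a subunit of the immunoproteasome and Tap1 part of the peptide transporter for class I molecules. The class I genes themselves did not follow: H2-K1 was at a mean of 469 TPM in C50 and 447 in the others, and H2-D1 at 304 and 273, neither of them called. The interferon-induced genes Isg15 (-0.10, limma adjusted p 0.84) and Irf7 (-0.07) also showed little difference, and they do not stand for all members that were not called. Without GFP-negative replicate 1 of C50, Ifi44, Ifit3, Psmb9 and Ifit2 were called lower and Ifit1, Oasl2 and Tap1 were not. Ifnar2, a chain of the type I interferon receptor on chromosome 16, was at 75.8, 74.3, 78.1 and 82.9 TPM in C50 and 89.5 to 125 (median 105) in the others, without overlap (-0.43, SE 0.0773, limma adjusted p 0.00448). Ifnar1, the other chain, was at 18.4, 46.4, 37.9 and 41.9 TPM against 41.2 to 60.0 and was not called (-0.56, SE 0.172, limma adjusted p 0.105). Whether the receptor level bears on the interferon-induced genes was not tested.

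Promoters of Ifit1 and Ifit3 are shown because they are the 2 of the 7 called genes whose window holds the letters of an interferon-stimulated element. The pattern searched was GAAANNGAAA or its reverse complement TTTCNNTTTC, in the RefSeq windows described above, and matches are in capitals. It occurred in 943 of 27025 promoters (3.49%) and in 12 of the 26 promoters matched to the list, most of them of genes that were not called. A match is no proof of a site. The windows are chr19:34640639-34640938 for Ifit1 and chr19:34583279-34583578 for Ifit3, both on the plus strand of GRCm38.p6, with 2 matches each.
Ifit1: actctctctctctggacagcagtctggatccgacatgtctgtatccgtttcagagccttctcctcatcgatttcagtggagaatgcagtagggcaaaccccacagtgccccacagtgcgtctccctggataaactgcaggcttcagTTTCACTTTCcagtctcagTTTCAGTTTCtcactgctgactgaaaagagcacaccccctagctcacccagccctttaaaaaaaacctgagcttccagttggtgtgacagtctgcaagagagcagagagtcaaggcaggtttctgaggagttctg
Ifit3: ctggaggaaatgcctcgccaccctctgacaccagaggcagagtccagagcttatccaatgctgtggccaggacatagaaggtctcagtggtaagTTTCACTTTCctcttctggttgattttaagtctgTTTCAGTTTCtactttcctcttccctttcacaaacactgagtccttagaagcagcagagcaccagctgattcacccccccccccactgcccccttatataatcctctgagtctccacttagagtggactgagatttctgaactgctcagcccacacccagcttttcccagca

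Defence and detoxification genes were lower in part. Of 14 tested genes for complement, chemokines and defence, 4 were called lower and none higher (background 2.11% and 0.648% of all tested genes), with a median of -0.45. Lcn2, an iron-carrier-binding protein released by stressed tubules, was at 1741, 1346, 453 and 460 TPM in C50 and 999.6 to 4081 (median 1708) in the others. The GFP-negative C50 libraries were inside that range and the GFP-positive ones below it (-1.14, SE 0.271, limma adjusted p 0.0293). Pigr, the transporter of polymeric immunoglobulins, Ltf (lactoferrin) and the chemokine Cxcl1 were the other 3, at -1.83, -1.62 and -0.71, each overlapping the other clones, and Pigr and Cxcl1 lost their call without GFP-negative replicate 1. Of 30 tested genes for oxidative stress and detoxification, 5 were called lower and none higher (background again 2.11% and 0.648%), with a median of -0.30. Gpx1, a glutathione peroxidase, was at 1081, 876, 1034 and 948 TPM against 1098 to 1794 (median 1448), all below the others (-0.57, SE 0.0992, limma adjusted p 0.00329). Ephx1, Gsta3 and Nqo1, enzymes that detoxify epoxides, electrophiles and quinones, were at -0.90, -0.70 and -0.68 and overlapped. Without that library Ephx1 and Nqo1 lost their call (limma adjusted p 0.0624 and 0.112) and Sod1, a superoxide dismutase gene on chromosome 16, was called lower (0.00564).

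Part of the histone genes were higher in C50. Of 32 tested, 7 were called higher and none lower (background 0.648% and 2.11%), and the median was 0.46. All 7 lie on chromosome 13, which holds the main histone gene cluster, so the shared position is no result about the called genes. H1f2, a linker histone, was at 267, 203, 206 and 199.8 TPM in C50 and 80.6 to 116 (median 101) in the other clones (1.13, SE 0.105, limma adjusted p 7.70e-06). Here WT cells with dDAVP, at 177 to 208 TPM, were at the level of C50, and the 12 other clone libraries were lower than both. The same order held for H1f3, at 5.30, 4.29, 4.59 and 4.53 TPM in C50, 0.75 to 2.11 (median 1.5) in the others and 3.98 to 4.40 in WT (1.21, SE 0.172, limma adjusted p 0.000575). H2bc8, a core histone, was at 47.9, 71.3, 33.8 and 42.4 TPM against 16.2 to 32.3 (median 22.8) and 36.6 to 42.3 in WT (1.06, SE 0.146, limma adjusted p 0.000449). H3c6 (1.2), H2bc4 (1.09), H3c1 (0.95) and H3c4 (0.86) were the other calls, and none of these was called without GFP-negative replicate 1, when H1f0 was (limma adjusted p 0.0108). H2bc4 was at 72.7 and 54.2 TPM in the GFP-negative and 18.8 and 21.0 in the GFP-positive C50 libraries, so it was high in 1 fraction. Histone genes are near-identical copies, and the assignment of reads among them is uncertain.

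The other rises were transporters, membrane proteins and enzymes. Eligible by the same criteria as the falls were 17 genes. Slc16a5, a member of the monocarboxylate transporter family, was at 18.1, 34.1, 19.5 and 19.4 TPM in C50 and 3.28 to 11.3 (median 5.74) in the others, a 3.48-fold higher mean (1.69, SE 0.266, limma adjusted p 0.00152). Cwh43, which acts on lipid anchors of membrane proteins, was at 4.43, 6.47, 5.95 and 5.84 TPM against 0.13 to 2.64 (1.65, SE 0.24, limma adjusted p 0.000682). Fndc10, a membrane protein with a fibronectin domain, was at 3.93, 5.03, 8.95 and 9.54 TPM against 0.71 to 2.87 (1.46, SE 0.225, limma adjusted p 0.0013). Ackr3, a scavenging chemokine receptor, was at 6, 7.71, 11.6 and 11.1 TPM against 0.46 to 5.20 (1.31, SE 0.291, limma adjusted p 0.0209), and its level in WT, 6.62 to 6.93 TPM, fell within the C50 values. Smaller rises were those of the kinase Tesk2, at 4.76 to 6.23 TPM against 1.89 to 4.16 (0.69), and the lysophosphatidic acid phosphatase Acp6, at 72.1 to 88.1 TPM against 39.3 to 64.2 (0.57).

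Some genes of collecting duct transport differed in C50. Of 5 tested aquaporins 2 were called lower and none higher, and of 9 tested intercalated cell markers 1 was called higher and 1 lower. Aqp6 is in both lists. The background was 0.648% higher and 2.11% lower of all tested genes. Hsd11b2, which inactivates glucocorticoids and so protects the mineralocorticoid receptor, was at 16.01, 20.2, 36.2 and 28.1 TPM in C50 and 4.46 to 24.2 (median 9.59) in the others. The values overlapped, and the call (1.21, SE 0.309, limma adjusted p 0.0458) was lost without GFP-negative replicate 1 (adjusted p 0.0814). Atp6v0a4, a proton pump subunit of intercalated cells, was at 20.9 and 30.0 TPM in the GFP-negative and 91.1 and 93.8 TPM in the GFP-positive C50 libraries, against 16.2 to 45.4 (median 29.8). Only the GFP-positive values exceeded the others (0.75, SE 0.174, limma adjusted p 0.0272). Aqp6, an intracellular aquaporin of intercalated cells, was at 0.60, 0.16, 0.17 and 0.39 TPM against 0.81 to 6.19 (median 2.81), lower than in every other library (-1.57, SE 0.24, limma adjusted p 0.00118). Aqp5 was at 6.89, 10.7, 12.9 and 9.46 TPM in C50 and 10.7 to 27.8 (median 20.7) in the other clones, and at 79.8 to 83.4 in WT cells with dDAVP (-0.93, SE 0.18, limma adjusted p 0.00781). All clones were thus far below WT for this gene and C50 was lowest in the fit. None of the 24 tested genes of vasopressin and cAMP signalling, the 23 of sodium and potassium transport, the 20 lineage factors and the 22 Hox genes was called, in lists of a size at which the share of 2.76% over all tested genes gives few or no calls. Hoxd3 was called higher when GFP-negative replicate 1 was left out (limma adjusted p 0.0228).

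**Figure D2:**
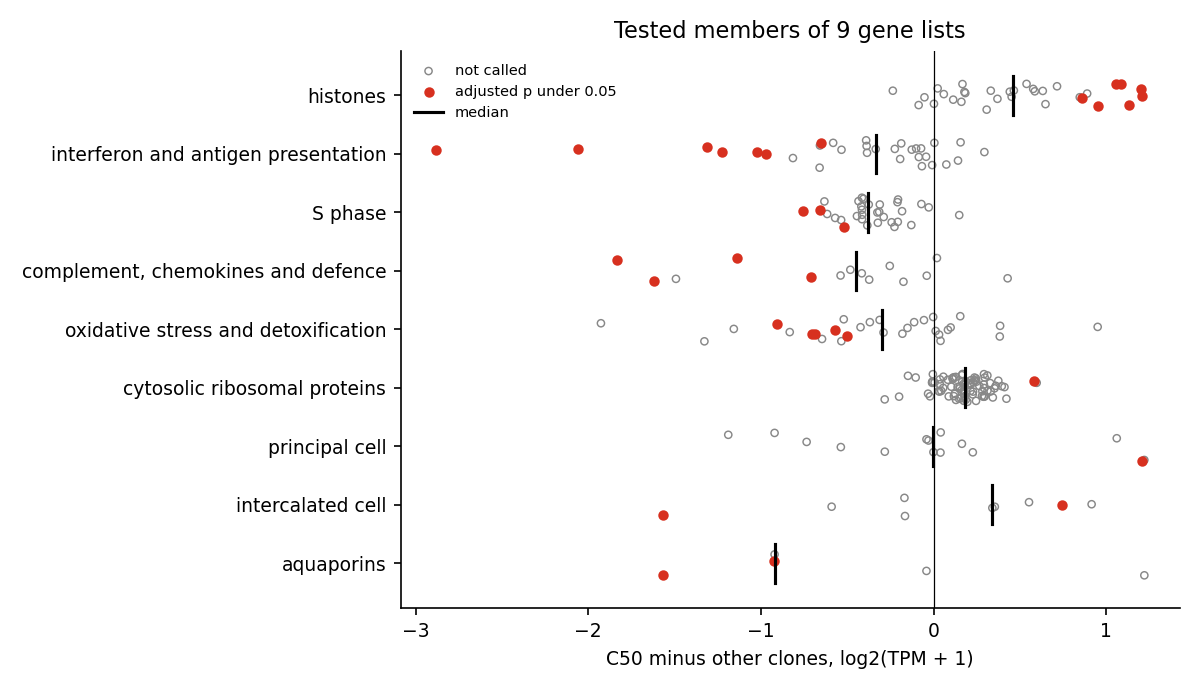
Log2 difference of C50 from the other clones for the tested members of 9 gene lists; each point is 1 gene, red where it was called by limma, and the bar is the list median. The histone genes lie mostly right of 0 (median 0.46) and the interferon genes left of it (median -0.33).

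By position, the lower transcripts were gathered on chromosome 16. Each tested gene was placed by its Ensembl identifier in the GENCODE M21 annotation, which matched 12946 of 13113 genes and left 167 out. The median difference of the 412 genes on chromosome 16 was -0.41, and -0.35 relative to the median of all tested genes, whereas the other 19 chromosomes lay between -0.12 and 0.29 on that scale. Of its genes 91.5% were below 0, against 58.2% on the other chromosomes. Called lower were 83 of the 412 (20.1%, against 2.11% of all tested genes) and called higher none. Chromosome 16 held 3.14% of the tested genes but 30.0% of the 277 genes called lower and 24.2% of the 149 below the range.

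The shift was present in each C50 library. Relative to the mean of the 3 WT libraries given dDAVP, with each library centred on its own median, the chromosome 16 median was -0.35 and -0.27 in the GFP-negative and -0.25 and -0.23 in the GFP-positive C50 libraries. The 12 others lay at -0.02 to 0.15 (median 0.09), and the WT libraries without dDAVP at 0.03 to 0.07. C50 was thus below all of them, and chromosome 16 was the only chromosome on which all 4 C50 medians lay outside the range of the 12 others. Against each clone alone the median difference was -0.30 from C1, -0.46 from C11 and -0.41 from C43. Without GFP-negative replicate 1 the median difference from the 12 others was -0.29, with 61 genes called lower. Relative to the median of all genes in that fit it was -0.33, beside -0.35 with all libraries. With the clone as a random block 12 of its genes were still called lower.

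**Figure D3:**
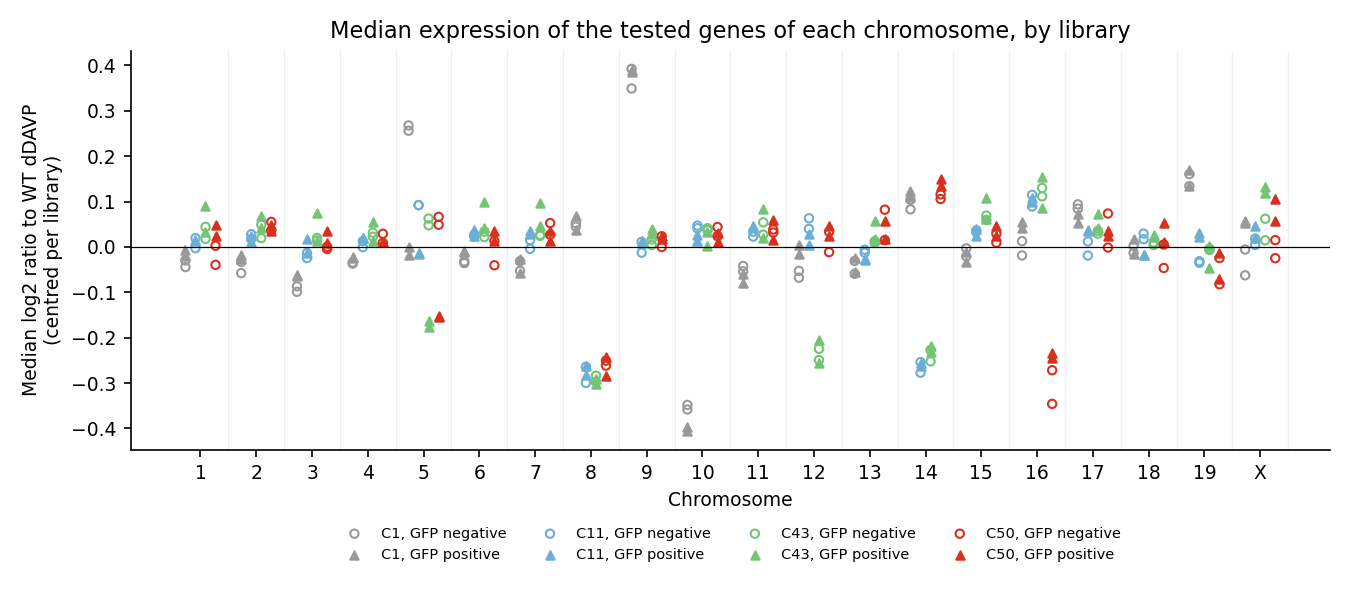
Median log2(TPM + 1) of the genes of each chromosome in each clone library, relative to the mean of the WT libraries with dDAVP and centred per library; each point is 1 library, coloured by clone. On chromosome 16 the 4 C50 points lie at -0.35 to -0.23 and all others at -0.02 to 0.15; on chromosome 14 C50 and C1 lie above C11 and C43.

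Along chromosome 16 the shift was even. In 10 consecutive blocks of 41 or 42 tested genes, the median difference ran from -0.49 to -0.34, and each block held between 1 and 7 genes below the range. The C50 median relative to WT was -0.39 to -0.23 in every block, while the other clones were between -0.03 and 0.22. The 36 genes below the range had many roles. St3gal6, a sialyltransferase, had a mean of 72.5 ± 10.0 TPM (SD, n = 4) in C50 and 166 ± 22.3 TPM (SD, n = 12) in the others. Ppp1r2, an inhibitor subunit of a protein phosphatase, was at 59.1 ± 1.86 and 87.9 ± 3.97 TPM. Dnm1l, which divides mitochondria, was at 32.6 ± 4.32 and 45.0 ± 3.58 TPM. Larger falls were those of Heg1, described above, and Ece2, an endothelin-converting enzyme, at 0.808 ± 0.253 and 3.86 ± 1.02 TPM. Heg1 is the one gene of the 12 largest falls that lies on this chromosome.

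Calls in other groups overlapped with the chromosome. Of 32 tested S phase genes 3 were called lower (background 2.11% of all tested genes), the helicase subunit Mcm4 (-0.76), the chromatin assembly factor Chaf1b (-0.66) and the clamp loader subunit Rfc4 (-0.52), and all 3 lie on chromosome 16. The median of the S phase list was -0.38, and none of the 32 genes of G2 and M phase was called. Without GFP-negative replicate 1, Mcm4 had a limma adjusted p of 0.117, Chaf1b of 0.0454 and Rfc4 of 0.00412. Itgb5, an integrin beta subunit, and Il10rb, a cytokine receptor chain, were also called lower and lie there, at -0.67 and -0.42, and neither was called without GFP-negative replicate 1 (limma adjusted p 0.0898 for both).

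Chromosome 14 held many of the higher genes. Its 412 tested genes had a median difference of 0.23, and 31 of them were called higher (7.52%, against 0.648% of all tested genes), which was 36.5% of the 85 higher calls. It held 30 genes called higher without GFP-negative replicate 1, and 3 with the clone as a random block. Of the 42 genes above the range 13 (31.0%) lie there, among them Adk (adenosine kinase) at 137, 131, 202 and 185 TPM against 85.2 to 123 (median 115). Adk did not overlap the other clones (0.56, SE 0.0945, limma adjusted p 0.00248), but WT cells with dDAVP, at 132 to 152 TPM, lay within the C50 values. Mdp1, a magnesium-dependent phosphatase, was at 66.0, 66.2, 76.2 and 70.7 TPM against 44.8 to 55.2 (0.51, SE 0.0725, limma adjusted p 0.000586), and Emc9, of a complex that inserts membrane proteins, at 52.8 to 73.5 TPM against 31.2 to 51.1 (0.66, SE 0.123, limma adjusted p 0.00558). Rpl15, the 1 ribosomal protein gene of 83 that was called, lies there too, at 426, 257, 212 and 229 TPM against 148 to 213. It was highest in the library with the high ribosomal share, and without that library its adjusted p was 0.106. The median over the 83 ribosomal protein genes was 0.18, and -0.01 without it.

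This pattern was shared with C1. The chromosome 14 median relative to WT was 0.11 to 0.15 in the C50 libraries and 0.08 to 0.12 in those of C1, but -0.28 to -0.22 in those of C11 and C43. Accordingly the median difference was -0.02 from C1, 0.31 from C11 and 0.34 from C43. The end of the chromosome departed from the rest. In the last of 10 blocks, from Pibf1 to Tmtc4 (41 genes), C50 stood at -0.10 relative to WT (libraries -0.15 to -0.07) and C1 at 0.22, a median difference of -0.43 between them, whereas C11 and C43 stood at -0.17 and -0.19. In the 9 blocks before it C50 stood at 0.05 to 0.29. The genes above the range lay in those blocks, and the last block held none.

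**Figure D4:**
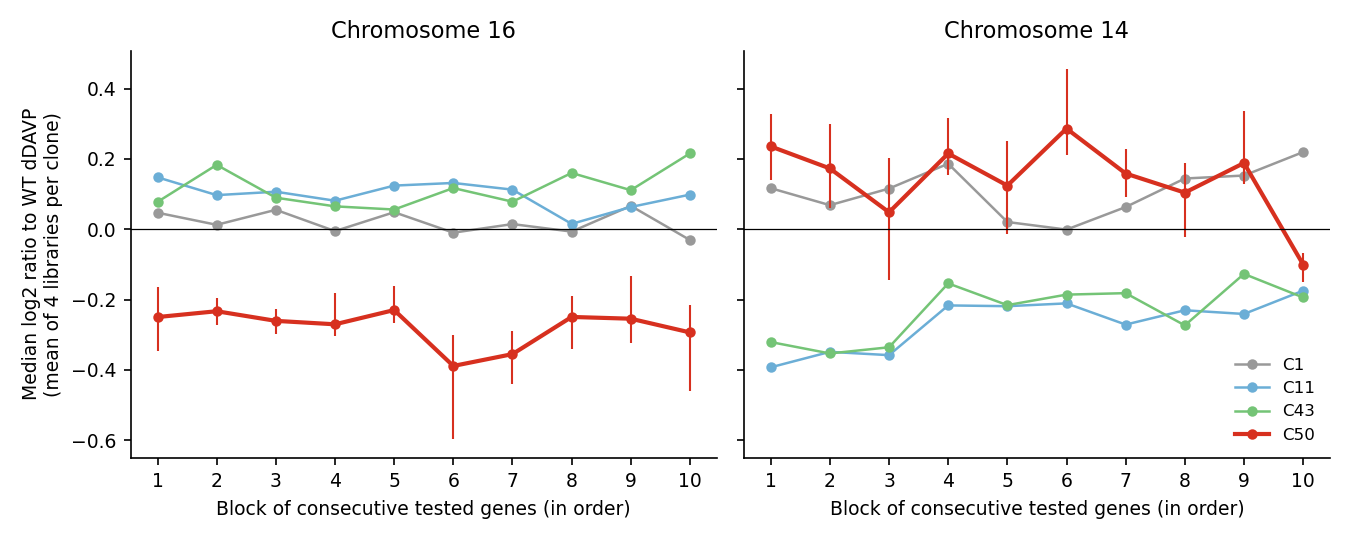
Median log2(TPM + 1) relative to WT with dDAVP in 10 consecutive blocks of tested genes along chromosome 16 and chromosome 14, with 1 line per clone (mean of its 4 libraries) and bars from the lowest to the highest C50 library. C50 lies at -0.39 to -0.23 in all blocks of chromosome 16; on chromosome 14 it lies at 0.05 to 0.29 in 9 blocks and at -0.10 in the last.

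The difference between C50 and the other clones was rarely shown to depend on the GFP fraction. In the fit with an interaction of fraction and clone, 3 genes were called (0.0229%), the small RNA genes Mir678, Mir5135 and Snord70, while 1968 genes had an unadjusted p under 0.05. Mir5135 and Snord70 were listed at 0 in 14 of the 16 libraries and entered the test only through 2 C50 libraries of 1 fraction, so their calls are no support for a dependence on the fraction. This count rested on single C50 libraries: it was 9 without GFP-negative replicate 1, 3315 without GFP-negative replicate 2, where the library that stood apart is alone in its group, and 14 and 7 without GFP-positive replicates 1 and 2. The median difference over all tested genes was -0.17 in the GFP-negative and 0.04 in the GFP-positive libraries, and the GFP-negative ones include the library that stood apart.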

How the data were processed

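RNA-seq libraries of mpkCCD cells were prepared with the SMART-Seq HT and Nextera XT kits and sequenced paired-end, per the labels' protocols. The submitters' processing notes name STAR and RSEM, with no version, and the genome build is not given in the sources used here. The authors deposited TPM per gene and library, in a table of 55415 lines. The 980 lines that share one of 79 symbols were summed, which left 54514 entries, and 0 pairs of libraries were identical. TPM keep no depth, and precision could be judged only from the replicates.

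Linear models of log2(TPM + 1), a pseudocount of 1 that understates the change of low genes, were fitted with limma 3.58.1 (statmod 1.5.0, R 4.3.3) with a mean-variance trend to 13113 genes of mean TPM at least 1 over the 16 clone libraries, with GFP fraction and C50 as terms. Tests were two-sided with Benjamini-Hochberg adjustment over all tested genes, with a threshold of 0.05 for a call. On simulated data 160 of 200 genes changed by a log2 of 1 were recovered (80%), with 8 false calls. The simulated noise was independent between libraries and held no differences between clones. These counts therefore do not cover errors that come from the spread between clones. Groups and replicate numbers came from the sample titles.

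Named genes were the 12 largest rises and 12 largest falls that were called with and without GFP-negative replicate 1 of C50, beyond the range, at a mean of at least 5 TPM in the higher set and without a provisional symbol; up to 4 called members of each of 41 gene lists; the called interaction genes; and cell type markers, neighbours and paralogs. Genes of chromosomes 14 and 16, members of runs, class I and interferon genes that were not called, and the interferon receptor chains were named after their values were seen. A few genes are not reported here. The members and lists were chosen with earlier results of these data known. Chromosomes came from GENCODE M21 (GRCm38). Alternatives covered scaling, filters, the unit of replication, sets of libraries and each library left out.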

Additional observations from a re-analysis of the deposited data

Results flagged for a closer look

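The interaction term of C50 with the GFP fraction passed the test (limma adjusted p under 0.05) in 3 small RNA genes. Mir5135 and Snord70 reached the mean TPM for testing only through the 2 C50 libraries in which they were above 0, so their calls do not support a dependence on the fraction. Mir678 was at 112 and 202 TPM in the GFP-negative C50 libraries and listed at 0 in the GFP-positive ones, while the 12 others had 13.1 to 189 TPM (interaction -8.11 on the log2 scale). Mir5135 was at 31.8 and 121 TPM in the GFP-negative C50 libraries and listed at 0 in the other 20 libraries (interaction -5.98). Snord70 was at 30.4 and 44.9 TPM in the GFP-positive C50 libraries, at 18.2 TPM in 1 WT library without dDAVP and listed at 0 elsewhere (interaction 5.25). TPM are scaled by transcript length, and these genes are short.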

How the results depend on the processing

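Against 362 calls with all 16 libraries, genes not filtered on TPM gave 200 calls, the spread within clone and fraction 1541, the clone as a random block 82, clone means as replicates 0 (481 at an unadjusted p under 0.05), GFP-negative libraries alone 34, GFP-positive alone 93, C1 as the only comparator 1404, no clone C1 567, no GFP fraction in the fit 173, a minimum log2 difference of 1 130, and, chosen after seeing the data, the libraries with fewer genes detected 21 and with more 40. Leaving out 1 library at a time gave 220 to 370, with 223 and 220 without GFP-positive replicate 1 or 2 of C50. Against 191 genes beyond the range, the counts were 6273 with clone means, 1794 and 2407 in GFP-negative or GFP-positive libraries alone (the latter 1430 above and 977 below), 2026, 1106 and 792 against C1, C11 or C43 alone, 390, 300 and 408 without C1, C11 or C43, 926 and 958 in libraries with fewer or more genes detected, and 197 to 350 with 1 library left out (330 and 350 without GFP-negative replicate 1 or 2 of C50); fewer libraries in a comparison make a range easier to exceed.

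Against 3 interaction calls there were 11 with no filter on TPM, 5 after quantile normalization, 5 with no mean-variance trend, and 4 to 3315 with 1 library left out: 3315 without GFP-negative replicate 2 of C50, which leaves the library that stood apart alone in its group and assumed to vary like the others, 9 without GFP-negative replicate 1, 14 and 7 without GFP-positive replicates 1 and 2, and 5 without GFP-positive replicate 2 of C11. The Aqp2 difference was called with the spread within clone and fraction (1.22), against C1 alone (2.67) and without clone C43 (2.07), and turned to -0.48 against C43 alone, where it was also called (limma adjusted p 0.0229). The GFP difference was -1.79 with log2 Aqp2 in place of the GFP fraction and -0.67 in GFP-negative libraries, and turned to 0.27 in GFP-positive libraries, 0.0947 without GFP-negative replicate 1 of C50 and 0.0445 in libraries with more genes detected, and that of Mir678 to 1.85 in GFP-negative libraries. The chromosome 16 median relative to all genes was -0.0457 with no filter on TPM, -0.27 against C1 alone, and -0.38 to -0.0457 over 40 alternatives. For the 12 largest rises and 12 largest falls, 850 of 956 alternatives kept the call, 106 lost it and 0 turned the direction, which the choice of genes beyond the range largely fixes; 18 of the 24 were called with the clone as a random block and 0 with clone means. Over the 59 genes named by rule, with these 24 included and Aqp2 and GFP left out, the result was the same in 1791 of 2331 alternatives. In 537 the call was lost, in 2 it was gained and in 1 the direction turned. The cause of these changes was not tested unless named.

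Between same-numbered libraries of C50 and of other clones, deviations across genes had a mean r of -0.0151 (12 pairs, -0.207 to 0.25, 3 over 0.1). These pairs join C50 only with other clones. They cannot show whether GFP-negative and GFP-positive C50 libraries of the same number belong together. A fit with the replicate number as a block gave 319 calls, 314 of them shared, with 3 interaction calls. Its Aqp2 difference was 1.22, its GFP difference -0.20 and its chromosome 16 median -0.35.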

Other observations

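Many gene groups held no called member in C50 with all 4 libraries. Among them were the 26 tested genes of glycolysis and hypoxia (median difference -0.03), the 24 of cholesterol synthesis (0.08), the 26 of the unfolded protein and amino acid stress response (-0.07), the 88 of oxidative phosphorylation (0.08), the 24 cell cycle inhibitors and p53 targets (-0.09), the 18 of Wnt and the 12 of Notch signalling, and the 10 imprinted genes. The median over all tested genes was -0.05, and 2.76% of them were called, a share that gives few or no calls in the smaller lists. Without GFP-negative replicate 1 of C50, 3 of the 88 genes of oxidative phosphorylation were called lower (Atp5j, Atp5o and Ndufa11, the first pair on chromosome 16), beside 1.48% of all genes in that fit. Also without it, 1 of 18 Wnt genes, 1 of 26 stress genes, 1 of 22 Hox genes and 2 of 25 immediate early genes were called higher, beside 0.798% of all genes, and 1 of 23 genes of the TGF-beta and BMP list lower.

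Lypd2, a membrane-anchored protein of the Ly6 family, was below the range in C50, at 0.80 to 3.48 TPM against 3.54 to 464 TPM in the others, and was not called (-3.49, SE 1.24, limma adjusted p 0.168), with means of 377 TPM in C1, 10.2 in C11 and 8.32 in C43. On chromosome 14, 3830406C13Rik, a gene with a provisional symbol, went against most genes there: its mean was 0.863 ± 0.670 TPM (SD, n = 4) in C50 and 12.9 ± 4.67 TPM (SD, n = 12) in the others (-2.91, SE 0.249). The other gene below the range on that chromosome was ccdc198, at 20.7 ± 3.16 and 80.9 ± 23.6 TPM (-1.87, SE 0.149). Chromosome 8 showed a further pattern across clones, with medians relative to WT of -0.28 to -0.24 in C50, -0.30 to -0.26 in C11 and C43 and 0.04 to 0.07 in C1. These results were singled out after their values were seen.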
